A study of Mus musculus with 12 samples.

Results

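The genes described here encode the proteins of the cytosolic ribosome, chosen as every entry of the deposited table whose symbol is Rpl or Rps with a number and at most an a, x or l after it, together with Rplp0, Rplp1, Rplp2, Rpsa and Rps3a1. The rule found 84 of 55415 entries, and entries named as pseudogenes were left out. RNA was sequenced in bulk from tumours of CT26, a chemically induced colon carcinoma line of BALB/c mice, with 3 libraries in each of 4 groups. Control mice were untreated, and the other groups received Complex 1, radiation, or both agents (here named the combination). Complex 1 is, by the title of the series, a platinum compound activated by X-rays. Neither the dose, the time of sampling, nor the place of the sampled tumour relative to the irradiated field is given in the labels. All 4 groups carry the same CT26 line, labelled WT, and the strain and age of the host mice are not in the labels. The labels also do not say whether the libraries of a group came from separate animals, so p-values measure only the spread between these samples, which may be technical.

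The cytosolic ribosome joins a small subunit, which reads the mRNA, to a large subunit, which forms the peptide bond, and the P0, P1 and P2 proteins form the stalk of the large subunit to which elongation factors bind. Mammalian ribosomal protein mRNAs begin with a 5′ terminal oligopyrimidine tract, an unbroken run of C and U through which mTORC1 and its partner LARP1 control their translation, and MYC is known to raise the transcription of many of them. Several members also act outside the ribosome: free Rpl5, Rpl11 and Rpl23 bind the ubiquitin ligase MDM2 and so stabilise p53, Rpl26 promotes p53 translation, and Rps27l, a close paralog of Rps27, is known as a p53 target gene.

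Start-site sequences of 7 members are shown first because the pyrimidine tract is the sequence that the family is known for. Promoter windows of RefSeq (GRCm38.p6, 250 bases before and 50 after the start) were matched by symbol for 62 of the 84 members. The motif CTTTC, searched on the transcribed strand, lay within 10 bases of the start in 11 of these 62 members (17.7%, 95% Wilson interval 10.2% to 29.0%) and in 2.91% of the 27025 genes of the table. The 7 members are chosen examples with CTTTC between 10 bases before and 50 bases after the start. Each line below gives 30 bases at or around the start, 5′ to 3′ on the gene's own strand, with every CTTTC in capitals. The lines of Rps27 and Rpl35 begin 10 bases before the start. The other lines begin 10 bases before their first CTTTC, which starts at transcribed base 3 in Rpl28, 5 in Rpl15 and Rps10, 8 in Rps26 and 11 in Rpl12. In the lines of Rps26 and Rpl12 the motif thus lies partly or wholly outside the 10 bases counted above.
Rps27: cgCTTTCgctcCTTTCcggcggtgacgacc
Rpl35: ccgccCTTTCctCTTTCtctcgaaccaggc
Rpl28: tcgtgtctctCTTTCcgtctccggccgcca
Rps26: gccggatcctCTTTCgagtcttggctccaa
Rpl12: gtcttttcggCTTTCggctcggaggaggca
Rpl15: agccttcttcCTTTCctctggcggcagcca
Rps10: acgccccttcCTTTCcagcctccgcctcgg

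From 10 bases before to 50 bases after the start, 27 of the 62 members (43.5%) and 8.49% of all genes held CTTTC on the transcribed strand. On the other strand of the same stretch it was found in 9.68% of members and 8.97% of all genes, so the difference lay on the transcribed strand. Of motifs searched on both strands of the whole window, CCGGAAG, a form of the ETS family motif, was in 41.9% of members and 9.93% of all genes. AAGATGGC, a core of the YY1 motif, was in 8.06% and 3.19%, and TATAAA, the TATA box, in 11.3% and 15.7%. The palindromic CGCG element known as a motif of BANP and ZBTB33, searched in 1 exact form, was in 9.68% and 0.525%. These matches describe letters in a window and are not evidence of binding.

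Rps27 and Rps27l are shown together because the estimates of these paralogs had opposite signs in the irradiated tumours. The 250 bases before the start of Rps27 (GRCm38.p6, chr3:90213649-90213898, minus strand) carry AAGATGGC, given in capitals. Those of Rps27l (chr9:66945836-66946085, plus strand) carry none of the motifs searched on both strands, and no CTTTC was found from 10 before to 50 after its start.
Rps27: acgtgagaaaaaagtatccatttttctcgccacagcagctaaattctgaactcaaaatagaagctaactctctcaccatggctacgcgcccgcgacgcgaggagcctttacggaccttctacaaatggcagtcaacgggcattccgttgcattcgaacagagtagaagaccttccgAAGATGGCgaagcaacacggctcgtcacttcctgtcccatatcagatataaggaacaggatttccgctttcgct
Rps27l: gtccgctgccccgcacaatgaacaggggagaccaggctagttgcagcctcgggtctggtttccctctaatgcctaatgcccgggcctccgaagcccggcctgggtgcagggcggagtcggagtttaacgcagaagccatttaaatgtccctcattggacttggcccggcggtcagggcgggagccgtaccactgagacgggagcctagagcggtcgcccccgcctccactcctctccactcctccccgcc

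Each library held 15.6 to 19.1 M counts (M, mega counts), and the lowest chi-square per degree of freedom between replicates was 5.25, above counting noise. Control replicate 2 had 0.02 FPKM of Xist and 28 counts of Y-linked genes against 9.20 to 14.2 FPKM and at most 1 count in the other libraries. T cell markers (6 listed) summed to 22.6 FPKM in Complex 1 replicate 3 against 9.16 and 10.8 in its replicates, and to 4.11 in radiation replicate 2 against 21.8 and 21.9. Of 9 carcinoma and epithelium markers 2 passed the filter, Krt18 and Krt20, while Epcam stayed at or below 0.18 FPKM in every library.

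Of the 84 members, 81 had at least 1 FPKM (counts per kilobase of exons and mega count of the library) in at least 3 of the 12 libraries and were tested, 46 of the large subunit, 32 of the small subunit and 3 of the stalk. The tested members had a median level of 303.9 FPKM over all libraries, from 1.88 for Rpl32l to 2468 for Rplp1, and 68 of them averaged at least 100 FPKM. FPKM divides by the length of all annotated exons, so a gene with long rarely used exons is set too low beside the others. The 3 members not tested are paralogs known for restricted expression or little studied: Rpl10l, the testis form of Rpl10, had 0 counts in all 12 libraries (a count of 3 per library is the limit that this allows). Rpl3l, the muscle form of Rpl3, had 0 to 5 counts per library, and Rps4l 5 to 23. Sequence sharing also bears on the levels: of 81 members with GENCODE M21 transcripts, the median had 45.5% of its 31-base sequences in another locus, 34 had at least 50%, and Rpl35 had 99.0%. Among the best separated were Rpl39l (2.05%), Rpl8 (8.05%) and Rps3 (8.82%). Counts of the others are uncertain to the extent that reads were split or dropped, and 322 entries named as ribosomal protein pseudogenes held a further 0.269% to 0.345% of the counts.

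The 84 genes together took 6.29%, 6.11% and 5.54% of all counts in the control libraries. Complex 1 libraries gave 5.96%, 6.01% and 5.28%, radiation libraries 4.64%, 5.09% and 5.46%, and combination libraries 5.39%, 5.29% and 4.65%. By this share every irradiated library lay below every control library, while Complex 1 libraries overlapped both. The gap was narrow, and in summed FPKM radiation replicate 3 (34220) lay just above control replicate 3 (34140). The means were 5.98% ± 0.390 in control, 5.75% ± 0.406 in Complex 1, 5.06% ± 0.412 in radiation and 5.11% ± 0.401 in the combination (SD, n = 3 each). In bulk tissue, fewer cells rich in ribosomal protein mRNA and less of it per cell cannot be told apart.

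**Figure D1:**
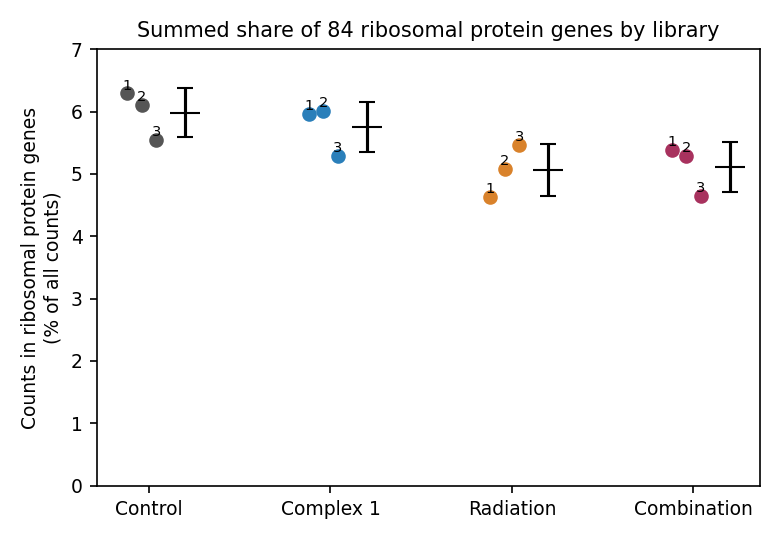
Share of all counts that fell in the 84 ribosomal protein genes, in percent, by library (points, numbered by replicate) with the mean and SD of each group. The 3 control libraries sit between 5.54% and 6.29%, above all 6 irradiated libraries, which sit between 4.64% and 5.46%.

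Radiation alone lowered 20 of the 81 tested genes and raised none, in the quasi-likelihood test of edgeR with p-values adjusted over 13668 genes (Benjamini-Hochberg, BH) and a threshold of 0.05. Of all tested genes 5.85% were lower and 7.39% higher in this comparison, against 24.7% of the members lower. The members' median log2 change was -0.32, beside -0.01 for all tested genes, and 78 of the 81 estimates were below 0. In 27 of 81 members (33.3%) every radiation library was below every control library, as in 12% of all tested genes. The large subunit had 14 of 46 genes lower (median -0.31), the small subunit 6 of 32 (median -0.32) and the stalk 0 of 3 (median -0.29).

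Rps15, a protein of the small subunit's head, had the smallest p: its level was 1549, 1516 and 1247 FPKM in control and 1017, 1141 and 1168 FPKM in radiation libraries. It fell by 0.40 ± 0.09 (log2, SE; adjusted p = 0.0100, edgeR), and the groups did not overlap. Rpl4, a large subunit protein that reaches into the peptide exit tunnel, had 1324, 1252 and 1165 FPKM in control against 999.3, 1022 and 1012 FPKM in radiation libraries. The radiation libraries lay close together, all below the controls, and the change was -0.33 ± 0.07 (adjusted p = 0.0134). Rpl10a, whose protein is known to be unequally represented among ribosomes, went from 352.0 to 387.4 FPKM in control to 267.2 to 314.3 FPKM (log2 change -0.35 ± 0.09, adjusted p = 0.0185, edgeR).

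Rpl8, at the peptidyl transferase centre, had 1147, 1125 and 1109 FPKM in control and 888.9, 939.2 and 998.5 FPKM in radiation libraries. It fell by 0.29 ± 0.07 (adjusted p = 0.0198, edgeR), and only 8.05% of its sequence is shared with another locus. Rps4x, the X-linked form of a small subunit protein, had 1079, 1035 and 1006 FPKM in control and 767.1, 727.7 and 904.9 FPKM in radiation libraries, again without overlap (log2 change -0.41 ± 0.10, adjusted p = 0.0201). Among the other 15 genes that fell were Rpl5, Rpl6l, Rpl7a, Rpl10, Rpl12, Rpl13, Rpl14, Rpl22, Rpl28, Rpl32 and Rps25, with log2 changes from -0.43 (Rpl32) to -0.25 (Rpl7a).

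The members with the largest estimates were not among those that passed. Rpl29 had 27.3, 21.7 and 13.3 FPKM in control and 8.62, 10.8 and 17.2 FPKM in radiation libraries, a log2 change of -0.80 ± 0.31 (adjusted p = 0.104, edgeR). Rps29 had 831.1, 634.5 and 448.4 FPKM in control and 248.3, 296.9 and 625.3 FPKM in radiation libraries (-0.74 ± 0.36, adjusted p = 0.199, edgeR). In both genes control replicate 3 was the lowest control library and replicate 3 of the radiation group the highest of that group, so the groups overlapped.

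At the other end, Rplp0, Rps10 and Rps27l had estimates above 0 and Rps14 and Rpl19 near 0. Rplp0, the anchor of the stalk and often used as a reference gene, had 795.3, 881.5 and 905.4 FPKM in control and 836.5, 1029 and 937.2 FPKM in radiation libraries (log2 change 0.09 ± 0.09, adjusted p = 0.531, edgeR).

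The radiation count of 20 rested on single libraries: it was 1 without control replicate 1, 2 without control replicate 2, 0 without radiation replicate 1 and 12 without radiation replicate 2, but 32 without control replicate 3 and 33 without radiation replicate 3, all lower. It was 36 with DESeq2, 9 with only the 2 groups fitted, 4 with limma on log2(FPKM + 1), 56 with no filter on low values, and 5 when control replicate 2, Complex 1 replicate 3 and radiation replicate 2 were left out together. With library totals as the only scaling 14 members were lower, and over all tested genes the split was then 576 lower and 1163 higher in place of 800 and 1010.

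Complex 1 alone changed none of the 81 genes in edgeR's test (2 at an unadjusted p under 0.05, and 0 with DESeq2 or limma), where 0.0951% of all tested genes were lower and 0.717% higher. The members' median log2 change was -0.07, beside 0.01 for all tested genes, and 64 estimates were below 0. In 3 of 81 members (3.70%) every Complex 1 library was below every control library, as in 4.71% of all tested genes. The smallest p values were those of Rpl3 and Rpl10, both near the peptidyl transferase centre. Rpl3 had 341.7, 363.7 and 343.8 FPKM in control and 326.6, 330.9 and 279.5 FPKM in Complex 1 libraries (-0.19 ± 0.09, adjusted p = 0.392, edgeR). Rpl10 had 645.4, 632.9 and 600.3 FPKM in control against 571.6, 603.5 and 502.2 FPKM (-0.19 ± 0.09, adjusted p = 0.398, edgeR). Complex 1 replicate 3 was the lowest library of its group in both. A test that missed the threshold does not show that the levels were equal. In counts simulated for the radiation comparison, 11% of 100 genes changed 1.25-fold were called. Those genes were drawn from all tested genes, so the share need not hold for the members or for Complex 1.

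In the combination 30 of the 81 genes were lower than in control and 1, Rps27l, was higher (edgeR, BH-adjusted p under 0.05), where 10% of all tested genes were lower and 11.9% higher. The lower genes made up 37.0% of the members. The median log2 change was -0.29, beside -0.01 for all tested genes, and in 35 members (43.2%) every combination library lay below every control library, as in 14.1% of all tested genes. By subunit 21 of 46 large, 9 of 32 small and 0 of 3 stalk genes were lower.

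Rpl4 had the smallest p in this comparison, at 968.1, 967.8 and 935.3 FPKM in the combination against 1165 to 1324 FPKM in control (log2 change -0.43 ± 0.07, adjusted p = 0.00160, edgeR). Rpl5, which carries the 5S rRNA and binds MDM2, had 338.0, 346.6 and 299.1 FPKM in control and 260.3, 257.4 and 240.4 FPKM in the combination. The log2 change was -0.42 ± 0.08 (adjusted p = 0.00236), with no overlap. Rpl12, at the base of the stalk, had 370.1, 343.0 and 313.7 FPKM in control and 273.5, 264.7 and 249.9 FPKM in the combination (-0.43 ± 0.08, adjusted p = 0.00265). Rpl10a (-0.41 ± 0.09, adjusted p = 0.00483) and Rps3a1 (-0.32 ± 0.07, adjusted p = 0.00600), a small subunit protein near the mRNA exit, followed. Rps3a1 stood at 1717, 1849 and 1649 FPKM in control and 1482, 1446 and 1401 FPKM in the combination. These 5 genes passed with any single library left out, in the combination against control. The other 25 lower genes had log2 changes from -0.43 (Rps4x) to -0.24 (Rpl15).

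Rps27l was the exception in direction. Its level was 84.9, 85.0 and 78.4 FPKM in control, 80.95, 99.4 and 89.2 FPKM with Complex 1, 87.2, 98.2 and 111.5 FPKM with radiation, and 122.4, 119.3 and 89.8 FPKM in the combination. Each library of the 2 irradiated groups was above each control library, as in 17.9% (radiation) and 23.9% (combination) of all tested genes. It rose by 0.37 ± 0.12 in the combination (adjusted p = 0.0417, edgeR), while radiation alone gave 0.23 ± 0.12 (adjusted p = 0.226, edgeR). The call was lost without combination replicate 1 (adjusted p = 0.160, edgeR), without combination replicate 2 (0.143) and without any single control library (0.0796 to 0.115). Rps27, its paralog, had 439.6, 396.9 and 298.4 FPKM in control and 335.7, 332.8 and 239.1 FPKM in the combination, a log2 change of -0.37 ± 0.17 that did not pass (adjusted p = 0.140, edgeR).

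**Figure D2:**
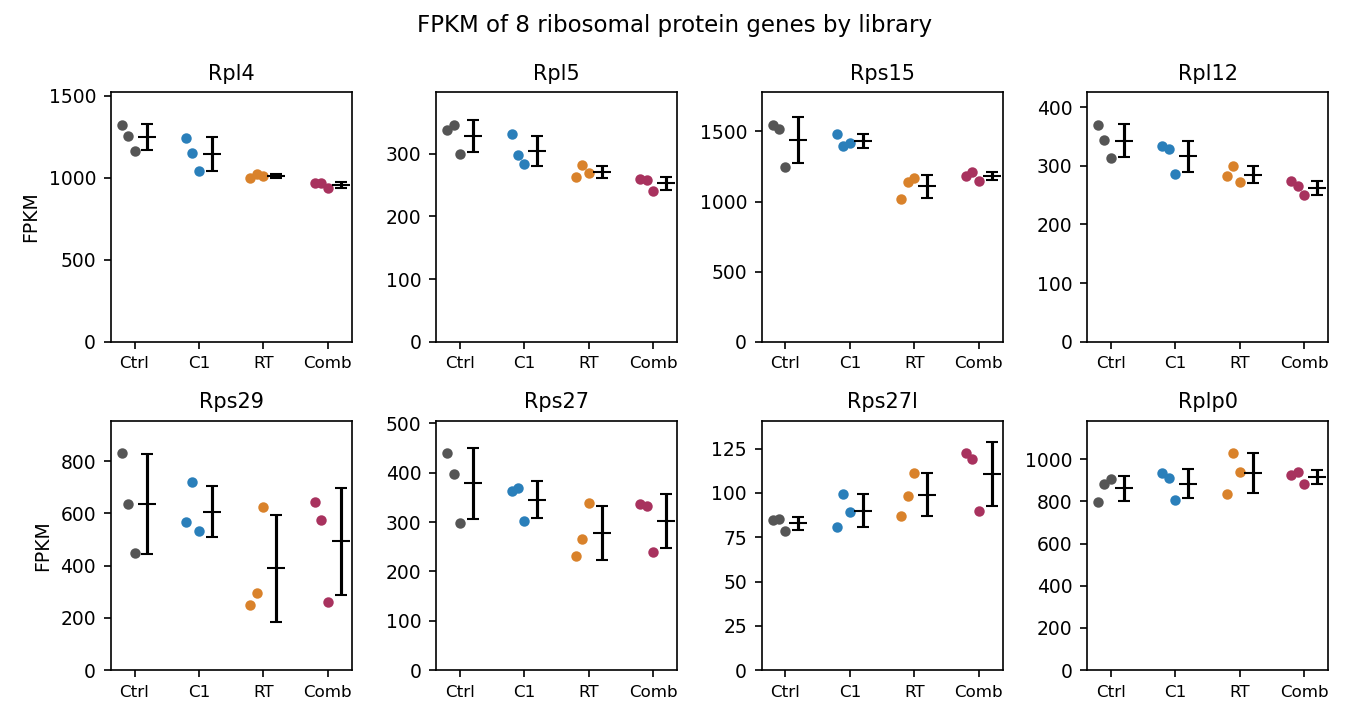
FPKM of 8 ribosomal protein genes by library (points) with the mean and SD of 3 libraries beside them, for control (Ctrl), Complex 1 (C1), radiation (RT) and the combination (Comb). Rpl4, Rpl5, Rps15 and Rpl12 are lower in each irradiated library than in each control library, Rps29 and Rps27 vary widely within groups, Rps27l is higher in the irradiated groups and Rplp0 stays between 795.3 and 1029 FPKM.

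The combination count of 31 fell to 14 without control replicate 1, 13 without control replicate 2, 19 without combination replicate 2 and 14 without combination replicate 3. It was 14 with limma on log2(FPKM + 1), 60 with no filter and 20 without the 3 libraries left out together. With library totals as the only scaling it was 22, and the split over all tested genes was 888 lower and 1947 higher in place of 1372 and 1620.

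Adding Complex 1 to radiation changed none of the 81 genes (edgeR; 0 also at an unadjusted p under 0.05, with DESeq2 and with limma), where 0.0366% of all tested genes were lower and 0.615% higher. The estimates ran from -0.16 (Rps24) to 0.48 (Rpl29), with a median of 0.02 beside 0.00 for all tested genes. The smallest p values belonged to Rpl6 (298.0, 312.8 and 293.8 FPKM with radiation; 272.3, 273.2 and 296.3 FPKM in the combination; log2 change -0.12 ± 0.07, adjusted p = 0.542, edgeR) and Rps3a1 (-0.13 ± 0.07, adjusted p = 0.559, edgeR). In 4 of 81 members (4.94%) every combination library was below every radiation library, as in 6.36% of all tested genes. With no filter on low values 3 members passed, all higher in the combination.

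Adding radiation to Complex 1 lowered 5 of the 81 genes (6.17%) and raised none, where 5.25% of all tested genes were lower and 4.73% higher, so the members' share of calls was near the background. The median log2 change was -0.21, beside -0.00 for all tested genes, and in 29 members (35.8%) every combination library was below every Complex 1 library, as in 14% of all tested genes. The 5 genes were Rpl6l, Rpl4, Rpl5, Rpl12 and Rps15. Rpl6l, a gene on chromosome 10 named for its likeness to Rpl6, had 105.2, 100.9 and 102.3 FPKM with Complex 1 and 82.9, 83.7 and 75.8 FPKM in the combination (-0.37 ± 0.10, adjusted p = 0.0304, edgeR). The count was 0 without Complex 1 replicate 1 or 2 or combination replicate 1 or 2, 1 (higher) without combination replicate 3, and 9 without Complex 1 replicate 3. It was 10 with DESeq2, 0 with limma, 32 with no filter, 12 without the 3 libraries left out together, and 3 with library totals as the only scaling or with the gene length trend removed.

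Radiation over both levels of Complex 1, a contrast of the 6 irradiated with the 6 other libraries, lowered 48 of the 81 genes (59.3%) and raised Rps27l, where 13.2% of all tested genes were lower and 13.3% higher (edgeR). The large subunit had 32 of 46 genes lower, the small subunit 16 of 32 and the stalk 0 of 3, with a median over all members of -0.26 beside -0.01 for all tested genes. The interaction, which asks whether the change with radiation differed between tumours with and without Complex 1, was past the threshold in 0 of the 81 genes (0 at an unadjusted p under 0.05, and 0 with DESeq2 and limma; 0% of all tested genes in either direction). With no filter 4 members passed it, all higher. The count of calls over both levels stayed between 34 and 57 when any single library was left out.

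**Figure D3:**
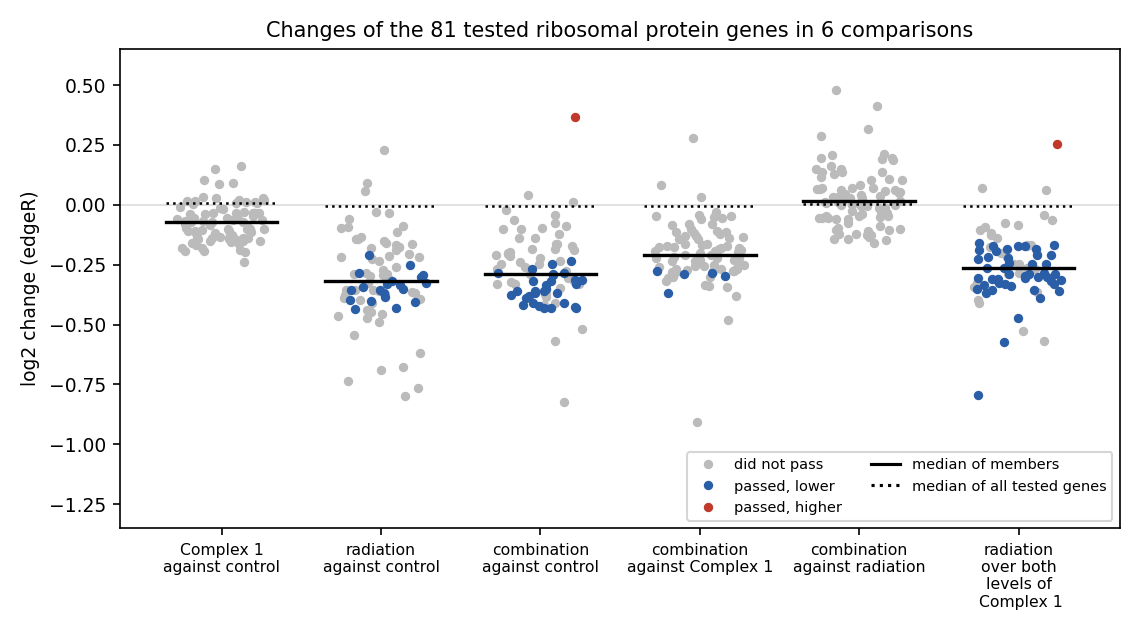
Log2 change from edgeR of the 81 tested ribosomal protein genes in 6 comparisons (points; blue lower, red higher, grey did not pass), with the median of the members (solid) and of all tested genes (dotted). Medians of the members lie at -0.32, -0.29 and -0.26 in the contrasts with radiation that use control libraries, and at -0.07 and 0.02 in the contrasts of Complex 1 alone and of the combination with radiation.

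The genes with roles in the p53 pathway differed among themselves. Rpl5 fell in both irradiated groups (with radiation -0.30 ± 0.08, adjusted p = 0.0249, edgeR). Rpl11, its partner in the 5S particle, had 247.6, 236.9 and 212.6 FPKM in control, 166.7, 177.1 and 209.0 FPKM with radiation and 207.3, 205.8 and 159.0 FPKM in the combination. No irradiated library reached a control library, yet neither change passed (adjusted p = 0.0577 and 0.0587, edgeR), and over both levels of Complex 1 it fell by 0.30 ± 0.08 (adjusted p = 0.0174). Rpl23 fell in the combination (-0.38 ± 0.10, adjusted p = 0.0201, edgeR) from 409.7, 420.7 and 319.4 FPKM to 307.0, 307.4 and 299.1 FPKM. That call was lost without any single library of the 2 groups except control replicate 3 (adjusted p 0.0522 to 0.0899, edgeR). Rpl26 had 32.7, 25.9 and 19.3 FPKM in control and 13.1, 13.7 and 22.5 FPKM with radiation, with overlap and no call (-0.69 ± 0.28, adjusted p = 0.127, edgeR).

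Among the stalk proteins, Rplp1 had 3141, 2592 and 2483 FPKM in control and 1853, 1798 and 2703 FPKM with radiation (-0.40 ± 0.16, adjusted p = 0.129, edgeR). Rplp2 had 273.7 to 297.4 FPKM in control and 203.6, 197.1 and 304.8 FPKM with radiation (-0.29 ± 0.17, adjusted p = 0.280, edgeR). In both, radiation replicates 1 and 2 lay below all controls and replicate 3 among or above them. Rplp0 alone of the stalk genes had an estimate above 0 with radiation, and it had none below -0.05 in any comparison between 2 groups.

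Of the small subunit genes with known roles outside the ribosome, Rps3, a protein of the mRNA entry with a part in DNA repair, had 336.2, 314.0 and 287.0 FPKM in control and 229.8, 242.6 and 273.4 FPKM with radiation. The groups did not overlap and the change did not pass (-0.36 ± 0.12, adjusted p = 0.0580, edgeR), while over both levels of Complex 1 Rps3 fell by 0.29 ± 0.08 (adjusted p = 0.0193). Rpsa, the laminin receptor precursor, fell in the combination (-0.32 ± 0.08, adjusted p = 0.0142, edgeR) from 663.4 to 728.5 FPKM to 573.6 to 585.7 FPKM. That call was lost without control replicate 2 or combination replicate 2 (adjusted p = 0.0603 and 0.0512, edgeR). Rps6, the substrate of S6 kinase, stayed at 615.0 to 656.4 FPKM in control and 580.8 to 687.9 FPKM with radiation (-0.06 ± 0.08, adjusted p = 0.662, edgeR). Rps19, the gene most often mutated in Diamond-Blackfan anaemia, had 145.6, 115.1 and 122.5 FPKM in control and 81.5, 78.98 and 133.2 FPKM with radiation (-0.41 ± 0.21, adjusted p = 0.210, edgeR). Rps27a, made as a fusion with ubiquitin, had 251.8 to 276.1 FPKM in control and 227.3 to 284.6 FPKM with radiation (-0.14 ± 0.13, adjusted p = 0.510, edgeR).

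Paralog pairs could be compared for Rpl39 and Rpl39l, whose products take the same place in the ribosome. Rpl39 had 344.1, 306.5 and 283.2 FPKM in control and 188.5, 199.1 and 347.0 FPKM with radiation, while Rpl39l had 109.99, 110.1 and 100.97 FPKM and 80.4, 103.8 and 97.1 FPKM. Rpl39l fell over both levels of Complex 1 (-0.24 ± 0.07, adjusted p = 0.0195, edgeR), and Rpl39, with the wider spread, did not pass (-0.29 ± 0.17, adjusted p = 0.241, edgeR). Rpl3 fell in the combination (-0.34 ± 0.09, adjusted p = 0.0145, edgeR; 0.0585 without control replicate 2 and 0.0629 without combination replicate 3) and Rpl10 in both irradiated groups (-0.34 ± 0.09 with radiation, adjusted p = 0.0240, edgeR; -0.38 ± 0.09 in the combination, adjusted p = 0.00875).

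Members differed in how much they varied between replicates, and the spread was wider in those with a short coding sequence. Across 79 tested members with a coding length (GENCODE M21), the within-group SD of log2 CPM (counts per mega count of the library, TMM-scaled) had a Pearson r of -0.58 and a Spearman rho of -0.66 with log2 coding length, a description across genes that share the 12 libraries. The SD also fell with level, with a Pearson r of -0.45 and a Spearman rho of -0.41 with log2 mean FPKM. The parts of length and level were not separated. The SD was 0.561 for Rps29 (168 coding bases), 0.476 for Rpl29 (480) and 0.425 for Rps28 (207), against 0.0628 for Rpl6 (888) and 0.0816 for Rpl4 (1257). Rpl29 is not among the shortest and held only 174 to 564 counts per library. The 28 shortest members (138 to 405 bases) had a median SD of 0.208, the 26 of 408 to 582 bases 0.138 and the 25 of 588 to 1257 bases 0.109. Other genes with at least 100 FPKM in the same length ranges had medians of 0.160 (37 genes), 0.118 (48 genes) and 0.104 (125 genes).

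**Figure D4:**
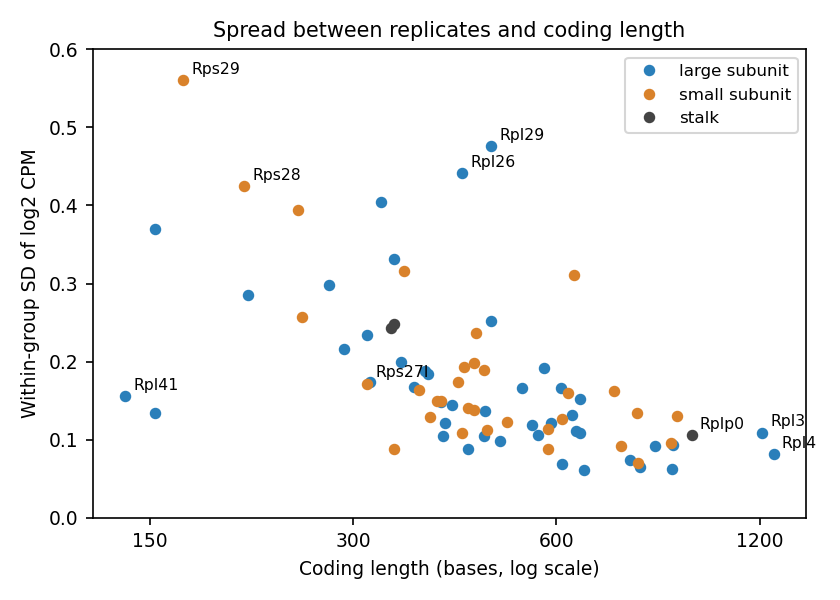
Within-group SD of log2 CPM of each tested member against its coding length in bases (log axis), coloured by subunit. Rps29 and Rps28 stand at 0.561 and 0.425 among the short genes, Rpl29 and Rpl26 stand out above others of their length, and the longest genes, such as Rpl4 at 0.0816, lie low.

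The short members moved together in the same libraries. The median log2 difference of the 28 shortest from the control mean was 0.14, 0.07 and -0.21 in the control libraries and -0.57, -0.41 and -0.13 in the radiation libraries. In the combination it was -0.12, -0.17 and -0.57. The 25 longest ran from -0.34 to -0.20 with radiation and from -0.42 to -0.24 in the combination, where control libraries gave -0.08 to 0.05. Radiation replicate 1 and combination replicate 3 were thus the lowest libraries for short and long members alike. Other genes of the shortest range were also lowest in these, at -0.16 and -0.18. Radiation lowered 4 of the 28 shortest, 4 of the 26 middle and 11 of the 25 longest members, and the combination 5, 8 and 16 (edgeR). Of the other genes with at least 100 FPKM in the same length ranges, radiation lowered 5 of 37, 5 of 48 and 14 of 125, and the combination 9, 10 and 27. The members' shares of calls were thus near or below those of the other genes in the shortest range and above them in the longest. That difference was not tested, and the members were taken without the floor of 100 FPKM. The members' median log2 changes by length were -0.37, -0.29 and -0.29 with radiation and -0.31, -0.26 and -0.29 in the combination. Those of the other genes were nearer 0, at -0.10, -0.03 and -0.05 with radiation and -0.07, -0.07 and -0.09 in the combination. The members' median SE with radiation was 0.14, 0.10 and 0.09, so the shortest had the fewest calls beside the widest errors. The part of RNA quality or fragment size in this spread was not tested.

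**Figure D5:**
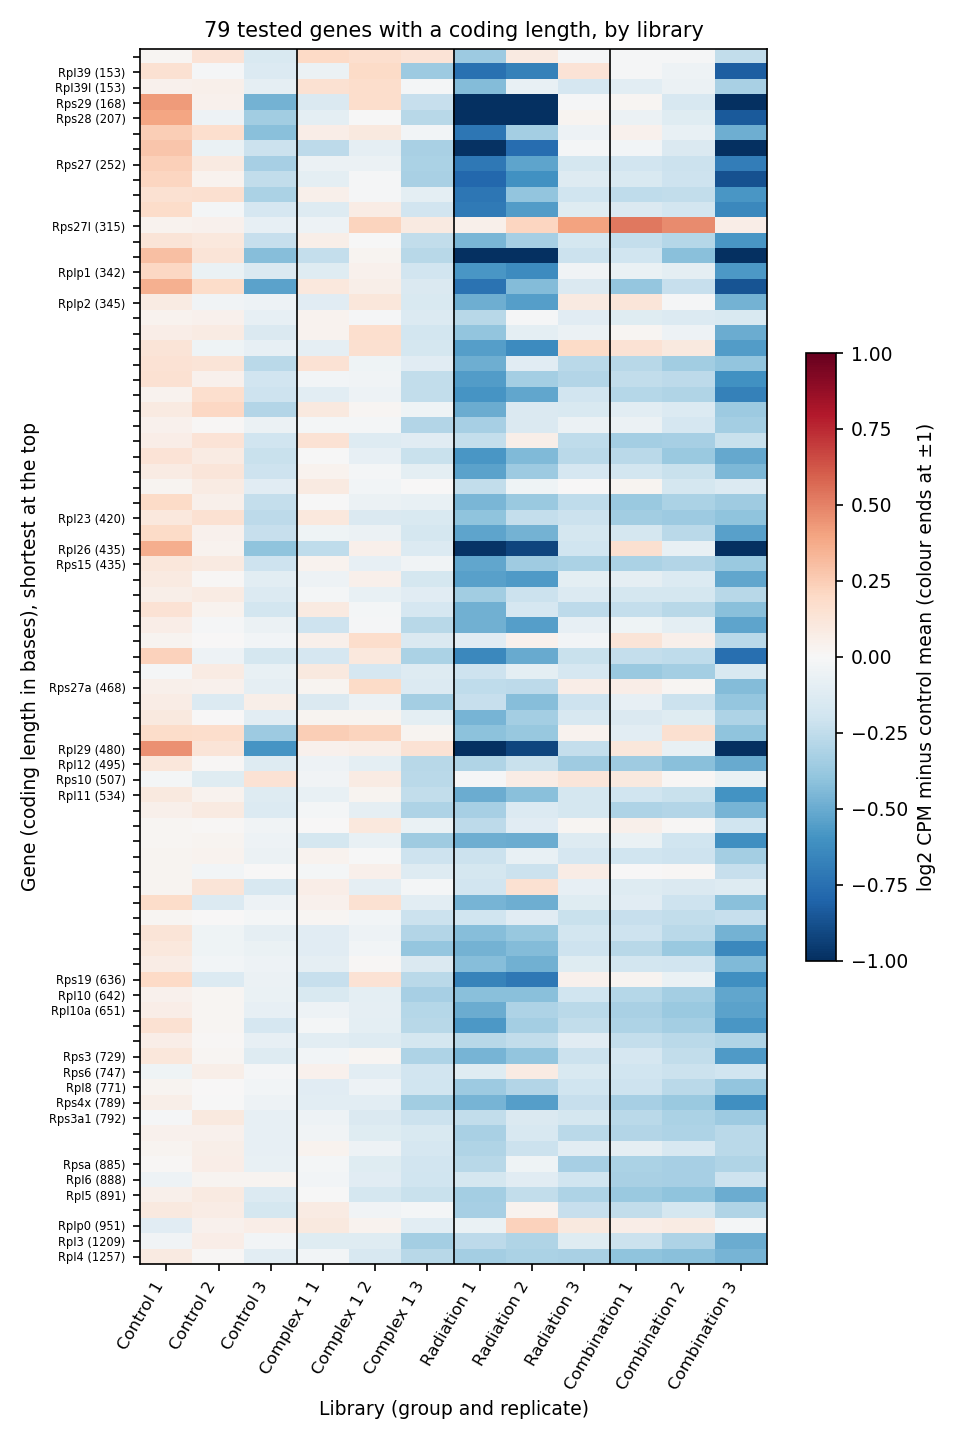
Log2 CPM of 79 tested ribosomal protein genes minus their control mean, by library (columns) and ordered by coding length in bases (rows, shortest at the top, with some of the members labelled by name); blue is lower, red higher, and the colour ends at 1 in either direction. Radiation replicates 1 and 2 and combination replicate 3 are the darkest columns in the upper rows, Rps27l is the red row in most irradiated libraries, and most of the lowest rows, though not Rplp0, are pale blue in all 6 irradiated libraries.

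Members with and without CTTTC from 10 before to 50 after the start are given side by side, where 5.85% of all tested genes were lower with radiation and 10% in the combination. Of 27 tested members with it, such as Rpl12 and Rpl28, radiation lowered 4 (median -0.30) and of 33 without it 9 (median -0.33). In the combination the counts were 9 of 27 (median -0.28) and 12 of 33 (median -0.32). No test of that difference was made.

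Other genes of protein synthesis were described from lists, beside 5.85% of all tested genes lower with radiation and 10% in the combination (edgeR). Of 7 ribosomal protein genes outside the symbol rule, radiation lowered 3: Rack1, a scaffold on the small subunit (319.7 ± 17.7 FPKM in control, 255.8 ± 12.8 with radiation; SD, n = 3), Fau, made as a fusion with a ubiquitin-like protein (594.7 ± 59.7 and 463.0 ± 64.9 FPKM), and Rpl36al (51.6 ± 3.37 and 42.8 ± 3.69 FPKM). In the combination 3 of the 7 were lower, Rack1, Rpl36al and Rps27rt. Of 20 elongation factors and other mRNAs known for the same pyrimidine tract, radiation lowered 5 and the combination 10, with medians of -0.17 and -0.24. Eef2, the translocase of elongation, went from 1637 ± 87.8 FPKM in control to 1302 ± 57.3 with radiation and 1233 ± 30.5 in the combination (log2 changes -0.36 ± 0.08, adjusted p = 0.0115, and -0.46 ± 0.08, adjusted p = 0.00147, edgeR). Eef1a1, which brings aminoacyl-tRNA, fell in the combination (-0.47 ± 0.08, adjusted p = 0.00169, edgeR), and Eef1d and Nap1l1 fell in both groups.

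Of 27 other initiation factors, radiation lowered 4 and the combination 8, none rising, where 5.85% and 10% of all tested genes were lower. Eif1, which guards start codon choice, fell from 214.5 ± 6.81 FPKM to 155.3 ± 16.3 and 157.5 ± 20.1 FPKM (both -0.49 ± 0.11, adjusted p = 0.00998 and 0.00519, edgeR). Of 36 ribosome biogenesis genes 8 fell with radiation and 5 in the combination, the latter near the share of all tested genes. Among them were Nop56 and Nop58 of the box C/D particle and Fbl, its methyltransferase (37.7 ± 0.169 FPKM in control, 31.7 ± 2.21 and 33.9 ± 0.881 FPKM; adjusted p = 0.00893 and 0.0250, edgeR). Of 14 tested genes of RNA polymerase I and its factors 2 fell (Polr1d and Tcof1) and 1 rose (Taf1d) with radiation, and 3 fell and 1 rose in the combination.

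Of 78 mitochondrial ribosomal protein genes, which encode the separate ribosome of that organelle, radiation lowered 2 (Mrpl21 and Mrps26) and the combination 0 (7 at an unadjusted p under 0.05), with medians of -0.08 and -0.04. Of all tested genes 5.85% and 10% were lower. Complex 1 alone changed 0 genes in each of these lists, where only 0.0951% of all tested genes were lower and 0.717% higher.

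Genes known to control ribosomal protein expression were given beside them. Myc had 55.0 ± 3.29 FPKM in control, 36.5 ± 3.09 with radiation and 40.8 ± 2.80 in the combination, and fell in both (log2 changes -0.62 ± 0.11, adjusted p = 0.00341, and -0.48 ± 0.11, adjusted p = 0.00592, edgeR). Its partner Max rose in both, as did Mxd4 of the MYC network, and Mxd1 rose in the combination (1.21 ± 0.15). Mxd3, of the same network, fell in both (-0.58 ± 0.12, adjusted p = 0.00853, and -0.53 ± 0.12, adjusted p = 0.00760, edgeR). Over the 9 tested genes of the MYC network 2 fell and 2 rose with radiation, where 5.85% and 7.39% of all tested genes fell and rose. In the combination 3 fell and 3 rose, where 10% and 11.9% of all tested genes did. Of 16 tested genes of mTORC1 and the control of tract mRNAs, 1 was lower with radiation, and 1 lower and 2 higher in the combination. These counts were near the shares of all tested genes (5.85% lower with radiation, 10% lower and 11.9% higher in the combination). Eif4ebp1, a translation repressor, fell in both groups (109.8 ± 7.61 FPKM in control, 87.1 ± 6.72 and 88.2 ± 5.98 FPKM). Sesn1 and Sesn2, stress-induced inhibitors of mTORC1, rose in the combination. Of the 4 genes of p53 and its partners, Mdm2 (29.5 ± 1.22 FPKM in control, 42.1 ± 0.994 and 43.4 ± 2.27 FPKM) and Cdkn1a (39.6 ± 8.02 FPKM, 63.9 ± 7.71 and 82.2 ± 2.89 FPKM) rose in both groups, and Mdm4 in the combination.

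Some markers of host cells also differed between the groups, though not all in the same contrasts as the members. The 7 macrophage markers summed to 898.6 to 1071 FPKM in control, 1256 to 1385 with Complex 1, 1920 to 2073 with radiation and 1926 to 2043 in the combination, and 5 of the 7 rose in each irradiated group. The 5 neutrophil markers summed to 10.3 to 18.2, 87.4 to 195.3, 8.90 to 33.6 and 244.9 to 407.8 FPKM in that order. The 9 carcinoma and epithelium markers summed to 123.0 to 154.1, 73.2 to 152.5, 86.2 to 140.4 and 88.7 to 108.1 FPKM, almost wholly from Krt20. Of the 5 neutrophil markers 4 rose with Complex 1, 1 with radiation and 5 in the combination (edgeR). Of all tested genes 0.717%, 7.39% and 11.9% were higher in these comparisons. No T cell (6 tested), fibroblast (6) or endothelium (3) marker passed with radiation. In the combination 1 T cell and 1 fibroblast marker rose. Ptprc, the leukocyte marker, rose with radiation (log2 change 0.7056, adjusted p = 0.004752, edgeR) and in the combination (1.196, adjusted p = 0.0001105, edgeR). Krt18, a carcinoma and epithelium marker, fell in the combination (-0.8658, adjusted p = 0.03827, edgeR), where 10% of all tested genes were lower. Krt20 did not pass there (-0.5767, adjusted p = 0.1117, edgeR), and neither keratin passed with radiation. None of the markers was at 0 in every library. Their part in the members' changes was not tested.

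The genes whose pattern over the 12 libraries was most like the mean log2 CPM of the 68 members with at least 100 FPKM were Gm9794 (Pearson r 0.97), Snhg8 (0.97), Gm9616 (0.97), Sec11a (0.96) and Ensa (0.96). Gm9794 and Gm9616 are processed pseudogenes in GENCODE M21, and 92.1% and 72.6% of their 31-base sequences are those of Rpl23 and Rps4x, so reads of these entries and of the members may be mixed. Snhg8, a host gene of a small nucleolar RNA, had 86.2, 80.3 and 55.9 FPKM in control, 36.7, 39.1 and 57.5 FPKM with radiation and 59.4, 53.8 and 36.7 FPKM in the combination, with the same low libraries as Rps29. Among the members themselves Rps27l (-0.10), Rplp0 (-0.05) and Rps10 (0.01) had the lowest correlations with that mean, of which most members are part.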

How the data were processed

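RNA sequencing of 12 mouse tumour libraries was used. The deposited table gives counts per gene and library, whole numbers made by the authors, and FPKM, which the authors derived from these counts, the exonic gene length and the library total (recomputed within 0.005 FPKM). The submitters' processing notes name mm39 and the tools HTSeq 2.0.1, STAR 2.5.3a and DESeq2, with no role for each. The strand setting is not given in the sources used here, so reads of antisense and overlapping genes may be mixed. Per the labels, total RNA and the NEB Next Ultra RNA kit were used.

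The members, lists and tests were chosen with earlier results of these data known. Groups follow the sample titles. The 13668 genes with at least 1 FPKM in at least 3 of 12 libraries were tested with edgeR 4.0.16 (R 4.3.3; TMM, quasi-likelihood, 1 mean per group over all 12 libraries, 7 comparisons, BH over all tested genes, adjusted p under 0.05). FPKM served as levels only. Entries without a symbol (1492) held 0.0579% to 0.0706% of a library. Named members were up to 5 per direction with the smallest p among those that passed in each pairwise comparison, the 2 with the smallest p where none passed, 21 members fixed by role, and up to 3 per list. Rpl29 and Rps29 and members listed in passing were named after their values were seen. Coding lengths and shared 31-base sequences came from GENCODE M21 transcripts (GRCm38, no coordinates used), and promoter windows from RefSeq. On simulated counts of 13668 genes for the radiation comparison, edgeR called 11% of 100 genes changed 1.25-fold, 85% of 100 genes changed 2-fold and 0.0149% of unchanged genes. Intervals and limits from counts cover counting error only. Some members are counted but not reported by name here.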

Additional observations from a re-analysis of the deposited data

How the results depend on the processing

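Counts of members past the threshold were recomputed under other scalings, filters, models and tools and without each library. Against main counts of 20 (radiation against control), 31 (combination against control), 0 (combination against radiation), 5 (combination against Complex 1) and 0 (interaction), no filter on low values gave 56, 60, 3, 32 and 4. DESeq2 1.42.0 gave 36 for radiation and 10 for combination against Complex 1. Limma 3.58.1 on log2(FPKM + 1) gave 4, 14 and 0 for radiation, combination against control and combination against Complex 1. Only the groups compared gave 9 for radiation. For combination against Complex 1, library totals as the only scaling and the gene length trend removed each gave 3. Leaving out control replicate 2, Complex 1 replicate 3 and radiation replicate 2 together, an alternative chosen after seeing the data, gave 5, 20 and 12 for radiation, combination against control and combination against Complex 1. Leaving out 1 library in turn gave 0 to 33 for radiation, 13 to 40 for combination against control, 0 to 9 for combination against Complex 1 and 34 to 57 for radiation over both levels of Complex 1 (main count 49), and 0 for Complex 1 against control, combination against radiation and the interaction. The cause was not tested. Fits without a library have fewer degrees of freedom, and their counts both fell and rose. Over the whole promoter window 66.1% of members, and 37.9% of all genes, held CTTTC. The log2 ratio of the members' summed share ran from -0.30 to -0.18 for radiation and from -0.28 to -0.16 for the combination without 1 library, and from -0.11 to 0.00 for Complex 1. Of the 29 changes of single members that passed and were recomputed, none changed direction, but many no longer passed. The threshold was missed by 14 with limma, 10 without the 3 libraries and 7 with only the groups compared. When 1 library was left out, the call was kept 98 times and lost 76 times over these changes. Other members were not followed through the alternatives. The replicate numbers gave no sign of pairing: of 18 same-numbered pairs the correlation of deviations ran from -0.19 to 0.14 and exceeded 0.1 in 4. Over 36 pairs with different numbers it ran from -0.21 to 0.15 and exceeded 0.1 in 6. Such correlations cannot show that pairing was absent. With the replicate block 16 members were lower with radiation, 31 passed in the combination against control and 4 in the combination against Complex 1. Depth of 15.6 to 19.1 M counts limits the tissue-restricted Rpl3l, Rpl10l and Rps4l.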
